A study of Homo sapiens with 26 samples.

Results

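The CF1 pool is a guide RNA library whose targets are mainly coregulators, general transcription factors and chromatin proteins, carried by RH4 cells sorted on myosin heavy chain (MYH). Its members are all targets in the pool's 2 count samples other than the shared control sets. They number 107 of the 983 target measurements made over the 10 pools of the series. They are covered by 1113 of the pool's 1180 guides, and the remaining 67 guides form 7 control sets.

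RH4 is an established cell line of alveolar rhabdomyosarcoma, a muscle-lineage tumour, and carries the PAX3-FOXO1 fusion gene. The study asked which gene losses push such cells towards muscle differentiation. The compared groups were MYH high cells and MYH low cells, each 1 sample of CF1-infected, drug-selected cells taken on day 7 after infection, fixed, permeabilised, stained and separated by fluorescence-activated sorting. Both groups come from 1 cell line, whose genotype is labelled PAX3-FOXO1+, and both carry the guide library, so the sort holds no arm without guides. The counts are of guide cassettes amplified from genomic DNA and give no expression level for any gene.

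The labels do not spell out the abbreviation CF1. Of the 107 targets, 80 lie on lists of known coregulator and transcription complexes, 13 more lie on lists that were added after the values were seen, and 14 lie on none of them. Among the targets are 9 subunits of Mediator, 6 of TFIID and 5 of SWI/SNF or proteins bound to it.

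Coregulators do not read DNA sequence by themselves. They connect sequence-specific factors to RNA polymerase II, as Mediator and TFIID do at promoters, or change the chromatin that the factors meet, as the SWI/SNF remodellers, histone acetyltransferases and methyltransferases do. In rhabdomyosarcoma that carries the fusion gene, the fusion protein holds muscle precursors short of terminal differentiation. Myosin heavy chain is a protein of the differentiated muscle cell.

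Each guide's counts were scaled to counts per 1000000 counts of its sample (CPM), and its log2 ratio, MYH high over MYH low, was taken after adding 1 CPM to both. Ratios were centred on the median of all guides of the pool, which lay at -0.08 before centring. A positive ratio therefore means that the guide's ratio of MYH high to MYH low was above that of the pool's median guide. A target's value is the median of its guides' ratios, and its spread is their standard deviation (SD). A median of at least 0.3 or at most -0.3, a 1.23-fold difference, is called past the limit below. Each arm is a single sample, so the groups could not be tested against each other, and guides are not replicates of the sort.

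The MYH high sample held 124571531 counts and the MYH low sample 101010414. No guide fell under the minimum of 10 counts, and the lowest count of any guide was 3293. The counting error of a guide's ratio had a median of 0.0071 on the log2 scale and reached 0.0287, far under the median SD over guides of 0.15. Reads carried no molecular identifiers, so this error covers counting only. Of the targets, 99 had 10 guides each, and the number ran from 4 for SET to 30 for SUPT6H.

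A negative-control guide stood apart from all other guides of the pool. The guide sgRNA3239 had 8554 CPM in MYH high cells, against 419 CPM in MYH low cells, a log2 ratio of 4.43 or 21.6-fold. It made up 0.855% of the MYH high counts and 0.0419% of the MYH low counts, and its ratio exceeded that of the highest fusion guide, at 4.14. The 9 other negative-control guides lay between -0.17 and 0.17. The same guide also moved in other pools and in both directions, with -2.51 in DR1, -2.06 in TF2 and 2.22 in CF3, and lay within 1 of 0 in the remaining 6. In CF3 the 9 other negative-control guides lay high too, between 0.81 and 1.70. These 9 ran from -0.13 to 0.32 in DR1 and from -0.41 to 0.23 in TF2. What lies behind the values of sgRNA3239 was not tested. It belongs to no target. With all control guides left out of the totals the same 2 targets were past the limit. That could hardly come out otherwise, because other totals shift all ratios alike and the centring takes the shift out.

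The control sets show the range that the sort covered. Guides against the part of PAX3 retained in the fusion, its DNA-binding domain by the set's name, had a median of 1718 CPM in MYH high cells and 220 CPM in MYH low cells. Their median log2 ratio was 3.24 (SD 0.70 over 10 guides), against 2.71 to 4.53 with a median of 3.11 for the same set in the other 9 pools. The set FOXO1_fusion had 2.88 (SD 0.66 over 11 guides), against 2.25 to 4.23 in the other pools. All 21 of these guides lay above 0 in CF1. PCNA, which clamps DNA polymerase to its template, stood at 0.19 (SD 0.09), with 7 of 7 guides above 0, against -0.11 to 1.34 elsewhere. MYOD1, the muscle-determining transcription factor, had 0.00 (SD 0.14 over 10 guides), against -0.39 in TF1 to 0.52 in CF3. In TF1 this set holds 20 guides, so it is not the same set there. The remaining pools ran from -0.08 in DR1 to 0.06 in TF3. The sets outside the fusion also lay low, with 0.13 (SD 0.14) for PAX3_non-fusion and 0.08 (SD 0.10) for FOXO1_non-fusion. The negative controls had a median of 0.07, against -0.11 to 1.30, and only CF3 had a higher one. In each of the 7 sets the CF1 value fell inside the range of the other pools.

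**Figure D1:**
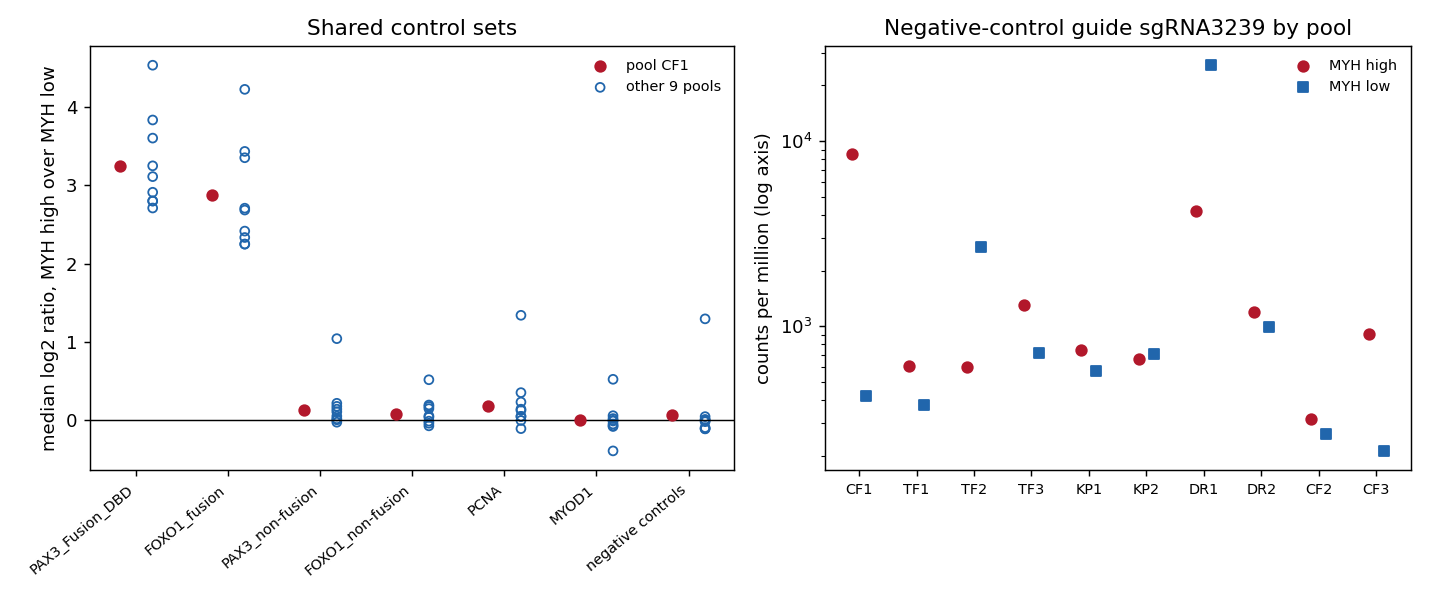
Left, median log2 ratio, MYH high over MYH low, for each shared control set, with CF1 as a filled red point and each of the other 9 pools as an open blue circle. Right, CPM of the negative-control guide sgRNA3239 in MYH high (red circles) and MYH low (blue squares) samples of the 10 pools, on a log axis. CF1 lies within the other pools' range for every set, and sgRNA3239 had 8554 CPM in MYH high cells of CF1, against 419 CPM in MYH low cells.

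Against these controls, the targets of CF1 differed little between the sorted groups. Their medians ran from -0.24 for MED6 to 0.39 for CDK6, with a median of -0.01, an SD of 0.11 and quartiles of -0.08 and 0.06. Below 0 were 55.1% of them and above 0 were 44.9%, against 53.4% below 0 and 46.6% above 0 in the other 9 pools. Within 0.1 of 0 lay 72 of the 107 targets, 14 lay at 0.1 or above and 21 at -0.1 or below. Past the limit were 2 targets on the higher side, CDK6 and ARID1A, which is 1.87% of the pool, and 0 on the lower side, which is 0%. In the other 9 pools 1.48% of 876 targets were past the limit on the higher side and 0.799% on the lower side. The SD of target medians was between 0.06 in DR2 and 0.19 in TF1 in the other pools. CF1 thus lay inside the span of the series in spread, in the number of higher targets and in the number of lower ones.

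**Figure D2:**
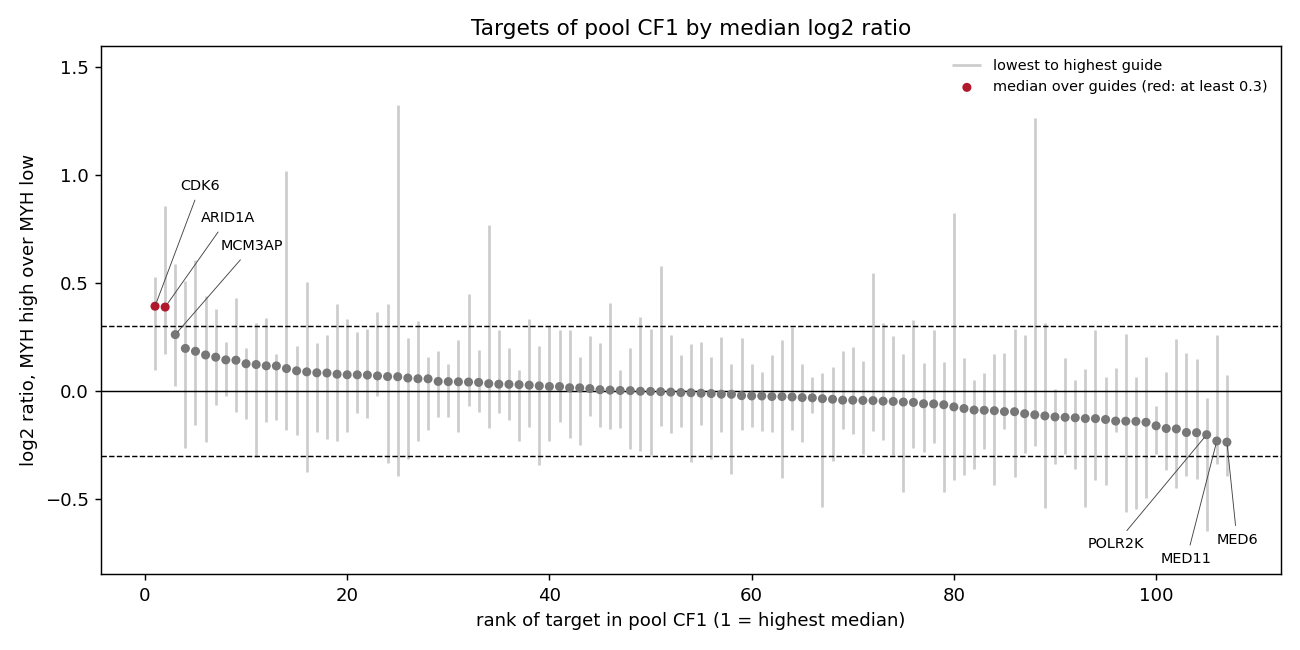
Median log2 ratio, MYH high over MYH low, for the 107 targets of CF1, ranked from highest to lowest, with a grey line from the lowest to the highest guide of each target and dashed lines at the limits of 0.3 and -0.3. CDK6 and ARID1A (red) are the 2 targets past the limit, at 0.39 each, and MED6 is the lowest at -0.24.

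CDK6 is a G1 kinase that works with D-type cyclins and phosphorylates the retinoblastoma protein. Its 10 guides had 537 to 1319.6 CPM with a median of 807 in MYH high cells, and 475 to 1073 CPM with a median of 646 in MYH low cells. The ratio was above 0 for 10 of 10 guides and ran from 0.10 to 0.53, with a median of 0.39 (SD 0.14), or 1.31-fold. The guide farthest from the median was the lowest, at 0.10, and without it the median was also 0.39. Leaving out a low guide could not lower the value. CDK2, the S-phase cyclin-dependent kinase and the other member of the cell cycle list in the pool, had 0.09 (SD 0.23) with 8 of 10 guides above 0.

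ARID1A is the DNA-binding subunit of the canonical BAF form of SWI/SNF, a remodeller that slides and ejects nucleosomes. Its 10 guides had 359 to 1922 CPM with a median of 1307 in MYH high cells, and 293 to 1602 CPM with a median of 1081 in MYH low cells. All 10 guides lay above 0, from 0.17 to 0.86, with a median of 0.39 (SD 0.19), or 1.31-fold. It also had the highest median abundance of the pool, 1210 CPM averaged over both arms, against 425 to 1210 CPM over all targets. The other members of the SWI/SNF list stayed near 0. SMARCC1 and SMARCD1, core subunits, had 0.03 (SD 0.12) and 0.04 (SD 0.19), and PHF10, a subunit of the PBAF form, had -0.01 (SD 0.19). BCL11A, a zinc-finger protein that binds the complex, had 0.02 (SD 0.14) over 11 guides. All 11 of its guide names belong to other targets in the pools CF2 and CF3, namely SUDS3, TAF1D, SPTSSA and SS18L2, so its label is uncertain.

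The nearest target short of the limit was MCM3AP, which encodes a scaffold protein of mRNA export. It had 703 CPM at the median guide in MYH high cells, against 655 CPM in MYH low cells, and a median ratio of 0.26 (SD 0.17) with 10 of 10 guides above 0. MCM3AP, CDK6 and ARID1A were 3 of the 14 targets with at least 80% of guides above 0, which is 13.1% of the pool, against 12% in the other 9 pools.

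The 9 targets next in order had medians of 0.12 to 0.20. Centred on the negative-control guides, these 9 had 0.05 to 0.13, and with no centring 0.04 to 0.12. CHAF1B, a subunit of the CAF-1 complex that loads histones behind the replication fork, had 0.20 (SD 0.20), with 9 of 10 guides above 0. The other members of the histone chaperone list, RBBP4, SET, SSRP1 and SUPT16H, had -0.03 to 0.03. CRAMP1 had 0.18 (SD 0.19) over 18 guides, of which 15 lay above 0. Its guide names form 2 runs of numbers, with medians of 0.25 over 10 guides and 0.14 over 8 guides. BPTF, the histone-reading subunit of the NURF remodeller, had 0.17 (SD 0.21), with 8 of 10 guides above 0. CHD4, the ATPase of the NuRD deacetylase complex, had 0.14 (SD 0.17) over 21 guides, of which 17 lay above 0. In the same complex RBBP4 had 0.01 (SD 0.15).

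The 2 measured subunits of the NSL complex, which acetylates histone H4 through its MOF subunit, lay side by side. KANSL1 had 0.14 (SD 0.09) with 9 of 10 guides above 0, and KANSL3 had 0.12 (SD 0.18) with 8 of 10. Their median CPM values were 1022 in MYH high cells and 978 in MYH low cells for KANSL1. For KANSL3 they were 739 in MYH high cells and 826 in MYH low cells, since the CPM medians of the 2 arms can fall on different guides and are not centred. Among genome organisers, CTCF, the insulator protein, had 0.16 (SD 0.15) with 8 of 10 guides above 0, and ESCO2, which acetylates cohesin, had 0.13 (SD 0.09) with 9 of 10. SMC3, of the cohesin ring, had -0.12 (SD 0.14), and STAG2, an accessory subunit bound to the ring, had -0.02 (SD 0.09). The 4 members of the cohesin list thus spread on both sides of 0, with a median of 0.05.

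**Figure D3:**
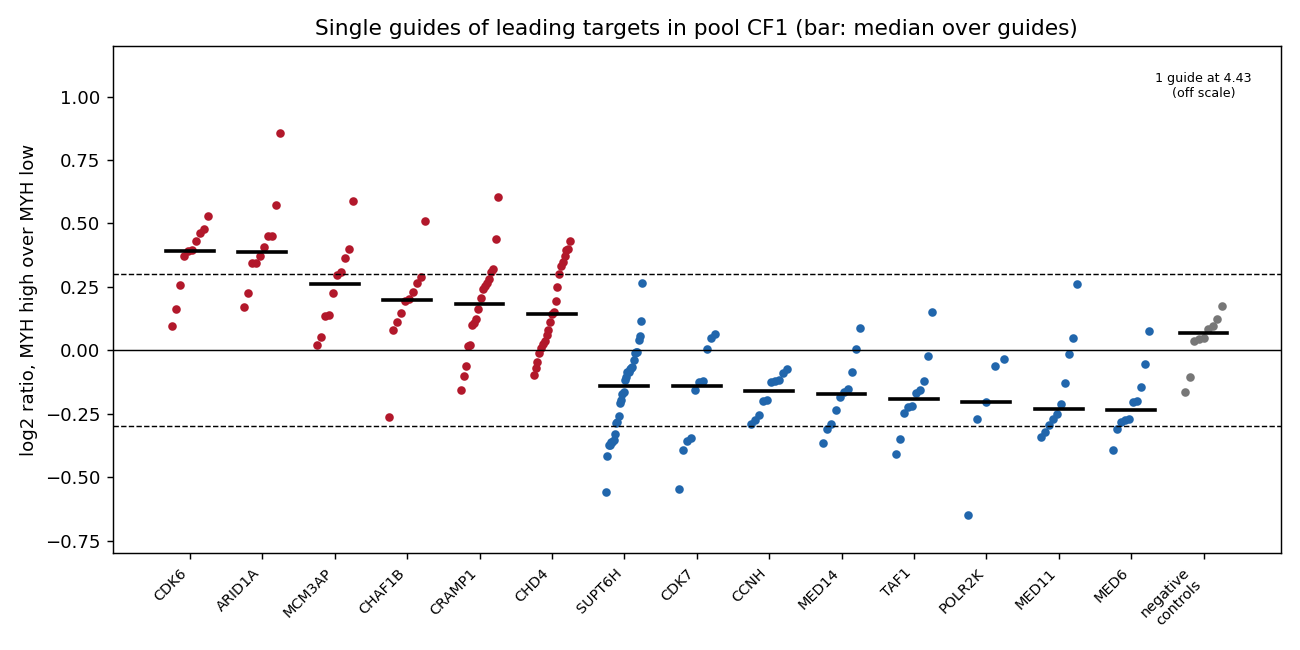
Log2 ratio, MYH high over MYH low, for every guide of 6 targets of the higher end (red), 8 of the lower end (blue) and the negative controls (grey), with a bar at each median and dashed lines at 0.3 and -0.3. The negative-control guide sgRNA3239, at 4.43, is off the scale. All guides of CDK6, ARID1A and MCM3AP lie above 0, and all guides of CCNH and POLR2K lie below 0.

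The lower end was occupied by the transcription machinery. All 12 targets with the lowest medians were on the lists of Mediator, of general transcription factors and TFIID, or of RNA polymerase II and elongation. These 3 lists, put together after the values were seen, hold 28 targets, of which 22 had a median below 0, against 55.1% of the whole pool. Their median was -0.13, against -0.01 for all targets, and 17 of the 28 had at least 80% of guides below 0. In the whole pool 26 targets did, which is 24.3%, against 12.2% of targets in the other 9 pools. Of the 79 targets outside these lists 37 had a median below 0, and 9 had at least 80% of guides below 0. None of the 28 was past the limit. The 6 above 0 were CDK8, CCNC, GTF2F2, CDK12, EAF1 and SUPT16H.

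Mediator bridges enhancer-bound activators and RNA polymerase II. The 9 measured subunits had a median of -0.17 and ran from -0.24 to 0.06, with 66 of their 90 guides below 0. The lowest values were those of MED6 and MED11, subunits of the head module, which contacts the polymerase. MED6 guides had 341 to 1019 CPM with a median of 483 in MYH high cells, and 343 to 1237 CPM with a median of 601 in MYH low cells. The median ratio of MED6 was -0.24 (SD 0.14), which is 1.18-fold less in MYH high cells, with 9 of 10 guides below 0. MED11 had a median of 511 CPM in MYH high cells and 574 CPM in MYH low cells, and a ratio of -0.23 (SD 0.20) with 8 of 10 guides below 0. The mean over the guides of MED11 was -0.15. Also in the head, MED17 had -0.19 (SD 0.21) and MED8 had -0.13 (SD 0.20), each with 8 of 10 guides below 0. MED18, of the head too, had -0.09 (SD 0.12).

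The middle and scaffold subunits of Mediator lay in the same range. MED10, of the middle module, had -0.18 (SD 0.22) with 7 of 10 guides below 0. MED14, the scaffold that joins the modules, had 874 CPM in MYH high cells and 1004 CPM in MYH low cells at the median, and a ratio of -0.17 (SD 0.14) with 8 of 10 guides below 0. The detachable kinase module differed: CDK8 had 0.00 (SD 0.15) and its cyclin CCNC had 0.06 (SD 0.17). All 7 subunits of the head, middle and scaffold were below 0 and neither kinase-module subunit was, a split that was drawn after the values were seen. Other subunits of the complex were carried by other pools, where 20 members of the same list had a median of -0.19 and 19 of them lay below 0. Those values came from separate sorts with their own centring, and no test was made between the pools.

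TFIID recognises core promoters, and its 6 measured subunits all had medians below 0, with a median of -0.13. TAF1, its largest subunit, had 215 to 1298 CPM with a median of 630 in MYH high cells, and 265 to 1513 CPM with a median of 813 in MYH low cells. The ratio of TAF1 was -0.19 (SD 0.16), with 9 of 10 guides below 0. TAF5 had -0.15 (SD 0.18) with 8 of 10 guides below 0. TAF3, which reads trimethylated histone H3 lysine 4 at promoters, had -0.13 (SD 0.14), and TAF6 had -0.13 (SD 0.17), each with 9 of 10 guides below 0. TAF2 had -0.08 (SD 0.20), and TBP, the TATA-binding protein, had -0.04 (SD 0.18).

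TAF5 and TAF6 each have a paralog that serves in the SAGA coactivator instead of TFIID. TAF6L had 0.06 (SD 0.18), against -0.13 for TAF6. TAF5L had -0.11 (SD 0.45), against -0.15 for TAF5. The wide spread of TAF5L came from 1 guide at 1.27, with 1992 CPM in MYH high cells and 876 CPM in MYH low cells, while its other 9 guides lay between -0.26 and -0.02. The mean over the guides of TAF5L was 0.01 for that reason.

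The kinase of TFIIH, which phosphorylates the tail of RNA polymerase II and activates cell cycle kinases, was covered by its catalytic subunit and its cyclin. CCNH had 357 to 983 CPM with a median of 583 in MYH high cells, and 463 to 1108 CPM with a median of 689 in MYH low cells. Its 10 guides all lay below 0, between -0.29 and -0.07, with a median of -0.16 and an SD of 0.08. CDK7 had -0.14 (SD 0.21), with 7 of 10 guides below 0. Of the other general factors, GTF2E2 of TFIIE had -0.14 (SD 0.11) with 8 of 10 guides below 0, and GTF2F2 of TFIIF had 0.09 (SD 0.16). The whole list of 10 general factors and TFIID subunits had a median of -0.14, with 9 of the 10 below 0 and 7 with at least 80% of guides below 0.

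In the list of RNA polymerase II and elongation factors the low values were those of a few members. POLR2K, a small subunit shared by the 3 nuclear RNA polymerases, had 5 guides with 408 to 708 CPM in MYH high cells and 498 to 783 CPM in MYH low cells. All 5 lay below 0, with a median of -0.20 (SD 0.25), and the lowest stood at -0.65. Without that guide the median of POLR2K was -0.13. SUPT6H, a histone chaperone that travels with the elongating polymerase, had -0.14 (SD 0.18) over 30 guides, of which 26 lay below 0. Its 30 guide names form 3 runs of 10 numbers with medians of -0.08, -0.27 and -0.19. What the numbers stand for is not given in the sources used here. RTF1, a factor of the Paf1 complex, had -0.12 (SD 0.12) with 8 of 10 guides below 0. The 6 other members, CDK12, EAF1, NELFB, SSRP1, SUPT16H and WDR61 (SKIC8 in current naming), lay between -0.04 and 0.03. The list's median was -0.02.

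The list of polymerases I and III and the Pol III factor TFIIIC leaves out the shared subunit POLR2K. Its 7 targets had a median of -0.01, from -0.09 (SD 0.19) for GTF3C3, with 8 of 10 guides below 0, to 0.08 (SD 0.22) for POLR3E. Integrator, which cleaves nascent RNA, had 4 subunits with a median of 0.06, from -0.03 for INTS11 to 0.07 for INTS9. Neither of these groups held a target beyond 0.1 on either side.

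**Figure D4:**
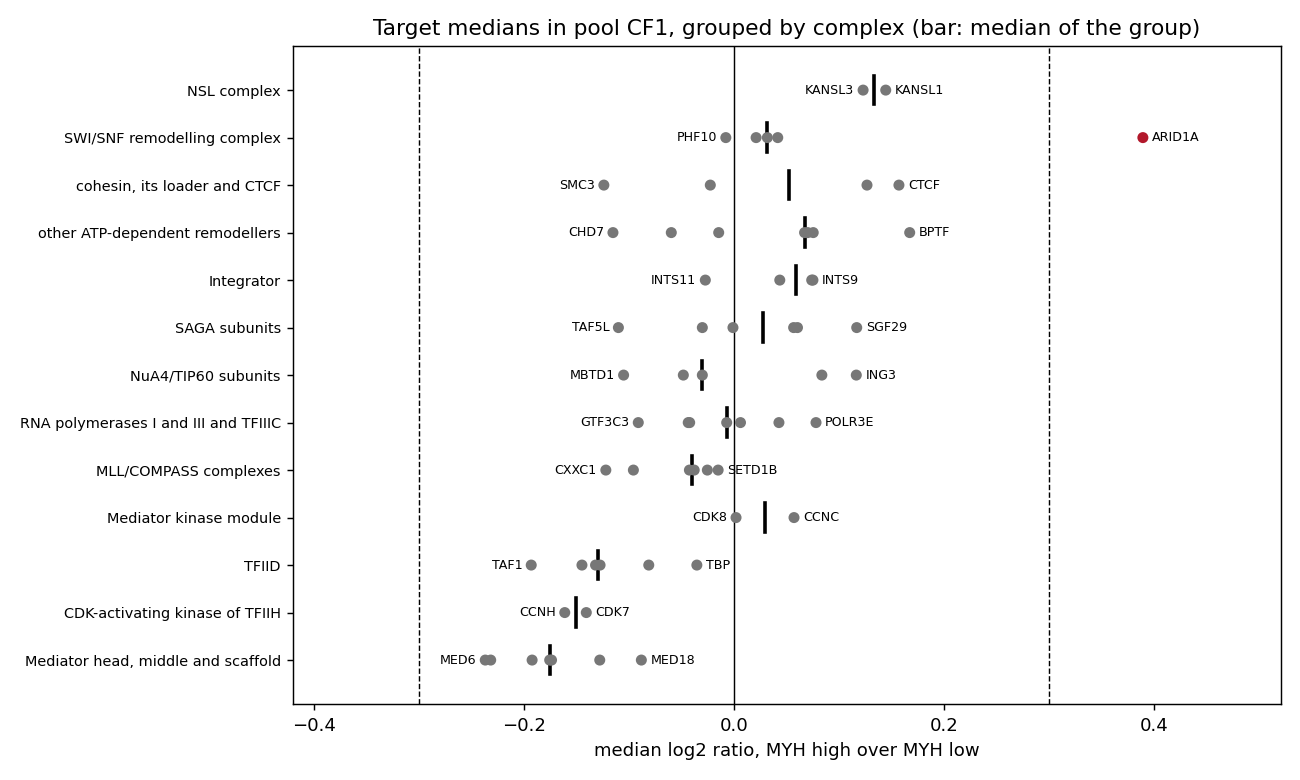
Median log2 ratio, MYH high over MYH low, for targets of CF1 grouped by complex, 1 point per target, with the lowest and highest member named, a black bar at the median of each group and dashed lines at 0.3 and -0.3. The Mediator head, middle and scaffold, the kinase of TFIIH and TFIID lie wholly below 0, while SWI/SNF lies near 0 except ARID1A at 0.39.

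Of the other histone-modifying complexes, the MLL/COMPASS list and that of SAGA and NuA4/TIP60 had medians close to 0. The 6 members of the MLL/COMPASS list, which methylate histone H3 lysine 4 or assist in it, were all below 0 with a median of -0.04. CXXC1, their CpG-binding subunit, had -0.12 (SD 0.14), KMT2A had -0.10 (SD 0.18) and KMT2B had -0.04 (SD 0.13). The coactivators SAGA and NuA4/TIP60, acetyltransferase complexes that share TRRAP, had 11 targets with a median of 0.04, from -0.11 for TAF5L to 0.12 for SGF29. The 6 SAGA subunits had a median of 0.03 and the 5 NuA4/TIP60 subunits one of -0.03, with TRRAP counted in both and TADA2A, of the 11, in neither. ING3, a NuA4/TIP60 subunit that reads methylated histone H3, had 0.12 (SD 0.11) with 8 of 10 guides above 0, and MBTD1 of the same complex had -0.11 (SD 0.15) with 8 of 10 below. On the list of acetyltransferases and BET proteins, BRPF1, a scaffold of the MOZ acetyltransferase, had 0.10 (SD 0.24) over 25 guides, and BRD2, a BET bromodomain protein, had -0.09 (SD 0.12).

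The other remodellers and corepressors held few targets in CF1. Of the 7 other ATP-dependent remodellers the median was 0.07, from -0.12 (SD 0.27) for CHD7 to 0.17 for BPTF. The class IIa deacetylase HDAC4 had 0.04 (SD 0.08) and the sirtuin SIRT7 had -0.10 (SD 0.13). The corepressor scaffolds RCOR1 of CoREST and SAP130 of SIN3 had 0.02 (SD 0.16) and -0.03 (SD 0.19). BCOR, DMAP1 and DRAP1, on the list of other corepressors, lay between -0.06 and 0.08. The Polycomb targets EPOP and PCGF1 had -0.01 (SD 0.16) and -0.05 (SD 0.20). The lysine demethylase KDM2A had -0.07 (SD 0.35), the arginine methyltransferase PRMT5 0.01 (SD 0.14) and the histone H2B ubiquitin ligase RNF40 -0.05 (SD 0.17). None of these targets came near the limit. The 14 targets on no list had a median of 0.02, from -0.06 for ELMSAN1 (MIDEAS in current naming) to 0.26 for MCM3AP.

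The list of general essential genes has 3 members in the pool, SUPT6H, TAF1 and TBP, which are also on the transcription lists. Their median was -0.14, and 3 of 3 had at least 80% of guides below 0, against 24.3% of the whole pool. Since all 3 are transcription genes, they do not show how essential genes of other kinds lay. The control set PCNA, a replication gene, had 0.19 with 7 of 7 guides above 0. Guides of the 12 lowest targets were mostly below the pool's median in abundance at day 7. These targets had a median abundance of 619 CPM over both arms, and 10 of them lay under the pool's median of 747 CPM. The 12 highest targets had a median abundance of 800 CPM, and 5 lay under it. Across the 107 targets the Spearman correlation of abundance with the log2 ratio was 0.208, which is a description over targets of 1 library. The guides' abundance at infection was not measured in this pool, so whether fewer cells with such guides bears on the ratio was not tested.

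Single guides could stand far from the rest of their target. Of the 1113 guides 15 lay at 0.5 or above and 7 at -0.5 or below. SF3B1, a splicing factor, had a guide at 1.33, with 1070 CPM in MYH high cells and 451 CPM in MYH low cells, while its median was 0.07 (SD 0.46). BRPF1 had a guide at 1.02 and KDM2A one at 0.82, with medians of 0.10 and -0.07. RPAP3, a cochaperone of polymerase assembly, had guides at 0.77 and 0.63 and a median of 0.03 (SD 0.31). At the lower side, after the POLR2K guide at -0.65, the lowest guides belonged to SUPT6H at -0.56, CDK7 at -0.55, CHD7 at -0.54 and TAF6 at -0.54. The highest guide of ARID1A, at 0.86 against its median of 0.39, stood as far out as these lower guides did.

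The other pools carried 10 of the 107 targets too, each with guides of other names, so another sort can be set beside CF1. Guide sequences are not given, so whether the guides themselves differ between the pools is not known. CDK6 had 0.39 (SD 0.14) in CF1, all 10 guides above 0, against 0.06 (SD 0.14) in KP2 with 7 of 10. ARID1A stood at 0.39 (SD 0.19) in CF1, all 10 guides above 0, against -0.09 (SD 0.26) in TF3 with 3 of 10, where guides ran from -0.43 to 0.52. The size seen in CF1 for either target was therefore not seen in its other pool. CTCF likewise had 0.16 (SD 0.15) in CF1, against -0.01 (SD 0.21) in TF2. CDK7 had -0.14 (SD 0.21) in CF1 and -0.08 (SD 0.11) in KP1, below 0 in both, with 7 of 10 guides below 0 in CF1 and 8 of 10 in KP1. The 6 remaining targets, BCL11A, CDK12, CDK2, E2F6, TADA2A and ZZZ3, lay between -0.01 and 0.09 in CF1 and between -0.08 and 0.06 elsewhere. The sign was the same in both pools for 5 of the 10 targets.

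**Figure D5:**
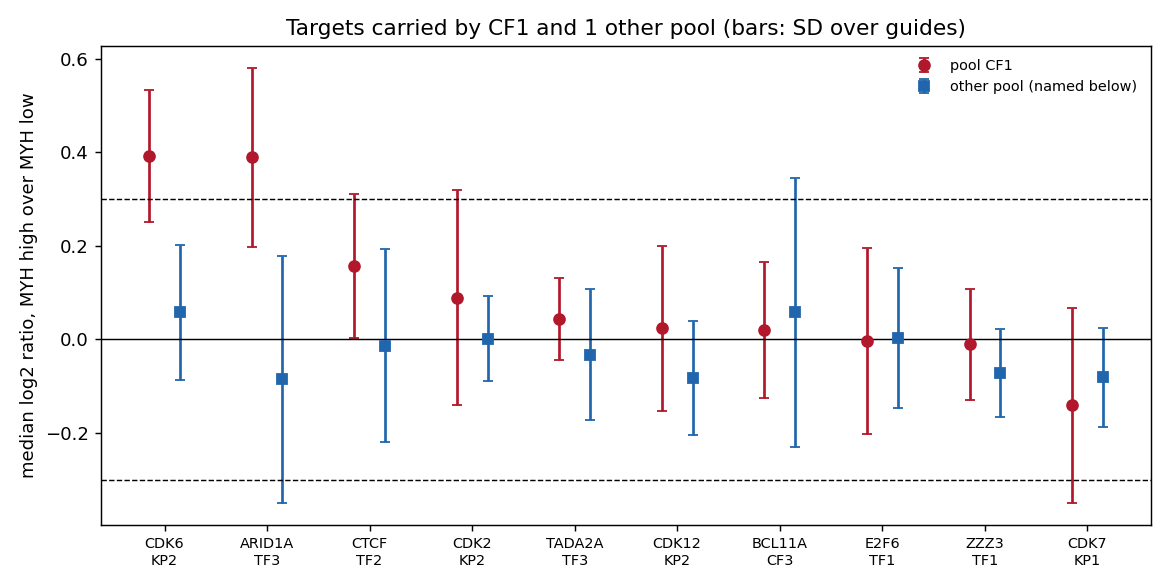
Median log2 ratio, MYH high over MYH low, for the 10 targets carried by CF1 (red circles) and by another pool (blue squares, pool named under the target), with bars for the SD over guides and dashed lines at 0.3 and -0.3. CDK6 and ARID1A stand at 0.39 in CF1, against 0.06 in KP2 and -0.09 in TF3.

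The authors' deposited table for the pool gives a model score per target, made from the same counts. The Spearman correlation of that score with the medians given here was 0.944 over targets, which checks the reading of the files only. At a false discovery rate under 0.05 the authors' deposited table lists 11 targets as lower in MYH high cells, which is 10.3% of the pool, and 0 as higher, which is 0%. These were MED6, MED11, MED14, MED17, TAF1, TAF3, CCNH, CDK7, POLR2K, SUPT6H and SMC3, all with a rate listed at 0 in the authors' deposited table. Their medians here ran from -0.24 to -0.12, all inside the limit of 0.3. Rates that are all listed alike do not rank the calls. MED17 was called at a score of -0.106, while TAF5, TAF6, RTF1 and CHD7, at -0.094 to -0.089, were not. The calls did not follow the size of the score alike on both sides. SMC3, at a score of -0.108, and TAF3, at -0.107, were called, while CHD4, at 0.114, and MCM3AP, at 0.178, were not. The count of 11 against 0 therefore does not show that only the lower side held scores of this size. Why the 2 sides differ was not tested. In the authors' deposited table ARID1A has a false discovery rate of 0.111 and CDK6 one of 0.158, so the 2 targets with the largest medians are not among its calls. By the second rate of the authors' deposited table, from the Wald statistic, SUPT6H alone passes, at 0.00483, which is 0.935% of the pool, and 0 pass on the higher side, which is 0%. No sort was repeated within the pool, so how these rates would hold between sorts is not known from the files.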

How the data were processed

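Cells and sort are described above. Per the file headers, the deposited counts are unnormalised reads of each guide in each sample. The submitters' processing notes name FastQC and MAGeCK without versions; read trimming and mismatch settings are likewise not given in the sources used. A further file deposited for each pool holds, per the file headers, a model score, p-values and false discovery rates by target, with no word on the logarithm behind the score. Reads lack molecular identifiers as far as described and are not independent molecules.

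Counts of the 2 CF1 samples were scaled to CPM over each sample's total, a pseudocount of 1 CPM was added, and log2 ratios of MYH high over MYH low were centred on the median of all guides, with a minimum of 10 counts over both arms and 3 guides per target. The same was done for the 9 other pools. The procedure was tested on simulated data with known differences before use. The differences put in were larger than any target median seen in CF1, so recovery of differences of the sizes seen here was not tested. Of 107 target names 104 are current symbols in the RefSeq gene table of GRCh38.p14 and 3 are older ones; ELMSAN1, HDGFRP2 and WDR61 are now MIDEAS, HDGFL2 and SKIC8. No coordinates are printed, because the sources used here give neither guide sequences nor a genome build.

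Named targets are those past the limit of 0.3, the 12 highest and 12 lowest medians, members of the described lists, targets carried by another pool, the targets next to the limit and targets with a guide far from their median. The members, lists and limit were chosen with earlier results of these data known, and the lists of Mediator modules, TFIID, the TFIIH kinase, Integrator, polymerases I and III, SAGA, NuA4/TIP60 and NSL were added after the values were seen. Alternatives were other centrings, pseudocounts, count minimums, summaries, totals and limits, and leaving out 1 guide per target. Python 3.11.15, numpy 2.4.6, pandas 2.3.3, scipy 1.17.1 and matplotlib 3.10.9 were used.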

Additional observations from a re-analysis of the deposited data

Results flagged for a closer look

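None of the flags fell on a CF1 value. Of 8 results compared over the 10 pools, 5 had 1 pool far from the others, and in each case that pool was CF3. Its medians on the log2 scale were 1.04 for PAX3_non-fusion, 0.52 for FOXO1_non-fusion, 1.34 for PCNA, 0.52 for MYOD1 and 1.30 for the negative controls. The highest values given above for these sets in the other pools are therefore those of CF3. Chance alone flags about 1 in 20 such groups of pools, and the sets of 1 pool share their 2 samples. Of 59 control guides present in all 10 pools, 0 had CF1 as the outlying pool. The rule sets the gap to the nearest pool against the whole range, so a guide extreme in several pools can go unflagged. The guide sgRNA3239 had 4.43 in CF1, its highest value, 2.22 in CF3 and -2.51 in DR1. The count of 0 therefore does not mean that every control guide of CF1 lay near its values elsewhere.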

How the results depend on the processing

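The 2 targets past the limit on the higher side, ARID1A and CDK6, stayed past it under every alternative run, with 0.31 to 0.42 for ARID1A and 0.31 to 0.39 for CDK6. Limits of 0.2 and 0.25 added MCM3AP, for a count of 3. On the lower side the count was 0, and it depended on the centring and the limit. It was 1 (MED6, at -0.30) when centred on the negative-control guides, 2 (MED6 at -0.32, and MED11) with no centring, and 3 (MED6, MED11 and POLR2K) at a limit of 0.2. The number of targets below 0 was 59, against 84 when centred on the negative-control guides, 79 when centred on them without sgRNA3239 (an alternative chosen after seeing the data, as was leaving the control guides out of the totals) and 89 with no centring. The mean over guides turned the sign of 12 targets, among them TAF5L (-0.11 by the median and 0.01 by the mean), and leaving out the farthest guide of each target turned that of 7. None of the 24 targets of the 12 highest and 12 lowest changed sign in any of 10 alternatives. Not all of these could change a value. The lowest guide count was 3293, so the other count minimums removed no guide, and the centring takes out a change of totals. Under other alternatives the sizes of the 24 targets did change. Of the 12 highest, 9 were lower by over 1.5 times when centred on the negative-control guides, 9 with no centring and 5 when centred without sgRNA3239, with SGF29 lowest at 0.05, 0.04 and 0.07 against 0.12. Of the 12 lowest, 5 moved by over 1.5 times with no centring (CCNH to -0.24, TAF5, CDK7, SUPT6H and GTF2E2), 2 with the mean over guides (MED11 to -0.15 and GTF2E2 to -0.09) and 1 without the farthest guide (POLR2K to -0.13). Measured against the SD over guides, 1 of the 240 values of the 24 targets moved, that of CCNH with no centring. The 240 include the values under the count minimums and the other totals, which could hardly move. No paired analysis was possible because each arm is 1 sample and the labels give no replicate numbers. The number of cells behind each guide is not in the files, so the counting error does not cover the sampling of cells, and the spread between sorts was not measured for the targets.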

Other observations

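The SWI/SNF list had members in other pools whose values can be set beside ARID1A. In the 9 other pools its 11 measurements had a median of 0.06 and ran from -0.15 for PBRM1 in TF3 to 0.38 for SMARCE1 in TF1, with 5 below 0. ARID1A itself, in TF3, was among the 5 below 0, at -0.09 (SD 0.26) with 3 of 10 guides above 0. SMARCE1, a DNA-bending subunit, had 10 of 10 guides above 0. SMARCB1, a core subunit, had 0.29 (SD 0.28) and SMARCA4, an ATPase of the complex, had 0.22 (SD 0.23), both in CF2. DPF2, a subunit of the BAF form, had -0.11 (SD 0.16) in CF2, and ARID2, of the PBAF form, had 0.06 (SD 0.09) in TF1 and 0.08 (SD 0.16) in CF2.

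Mediator subunits outside CF1, 20 against 9 inside it, covered a wider range, and a range grows with the number of members. They came from CF2 and CF3, where all target medians had an SD of 0.15, against 0.11 in CF1. The medians of these subunits ran from -0.37 to 0.04. MED20, a head subunit, had -0.31 (SD 0.28) in CF3, and MED15, a tail subunit that activators bind, had -0.20 (SD 0.16) in CF2. MED12, of the kinase module like CDK8 and CCNC, had -0.02 (SD 0.15) in CF3, and MED12L had 0.04 (SD 0.41) in CF2. General transcription factors and TFIID subunits in other pools had a median of -0.08 over 19 measurements, of which 14 lay below 0. No test was made between pools, and the negative controls of CF3 stood at 1.30.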
